A study of Mus musculus with 12 samples.

Results

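The SOX transcription factors are described here in mouse mesangial cells (MMC), contractile cells between the capillary loops of the kidney glomerulus. The 10 genes Sox4, Sox5, Sox6, Sox7, Sox8, Sox9, Sox11, Sox12, Sox13 and Sox18 were taken by symbol from the 25230 genes counted by RNA-seq, and all 10 were present in the counts. MMC were primary cells grown from pooled glomeruli, either of wild-type (WT) mice or of homozygous mice of the lncMGC-KO5 line. This line was made in C57BL/6J embryos with Cas9 and a pair of guides around the start site of lncMGC, the host transcript of the miR-379 cluster, and every KO library comes from this one line. They were serum-depleted (SD) or given 10 ng/ml TGF-β for 24 h, which made 4 groups of 3 libraries, named WT-SD and WT-TGF, and KO-SD and KO-TGF. The study calls the samples of a group independent, and the sources used here do not state whether they came from separate mice or cultures, so p-values measure only the spread between these libraries, which may be technical.

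SOX proteins bind DNA through a high mobility group (HMG) box related to that of the sex-determining factor SRY, and bend the DNA on binding. They are grouped by the likeness of this box: the SoxC genes (Sox4, Sox11, Sox12) act in progenitor and mesenchymal cells, and the SoxE genes (Sox8, Sox9) act in cartilage, testis and neural crest, with SOX9 also known as a regulator of collagen genes and of repair in the kidney. The SoxD genes (Sox5, Sox6, Sox13) lack a known transactivation domain and work beside other factors, and the SoxF genes (Sox7, Sox18) act in endothelial cells. TGF-β signals through SMAD proteins and drives matrix production in mesangial cells.

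The SoxC, SoxD and SoxE subgroups are visible in the sequence that the genes share. A stretch of 60 bases from the HMG box was read from mouse transcripts (GENCODE vM21, mm10). It is shown for the close pairs Sox4 and Sox11 and Sox8 and Sox9. The members of each pair differed in the direction or the size of their changes below. Capitals mark the bases that differ between the members of the pair.
Sox4, chr13:28952782-28952841, minus strand: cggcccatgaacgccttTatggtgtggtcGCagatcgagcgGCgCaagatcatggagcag
Sox11, chr12:27342199-27342258, minus strand: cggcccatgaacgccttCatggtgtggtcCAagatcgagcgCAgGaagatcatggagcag
Sox8, chr17:25570163-25570222, minus strand: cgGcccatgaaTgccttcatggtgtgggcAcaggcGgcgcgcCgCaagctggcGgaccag
Sox9, chr11:112782903-112782962, plus strand: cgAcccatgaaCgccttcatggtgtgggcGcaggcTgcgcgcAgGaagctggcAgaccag

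Sox4 and Sox11 differed at 6 of these 60 bases and Sox8 and Sox9 at 7. Over 234 bases of the box, identity was 75.21% to 87.61% in the 8 pairs within a subgroup and 50.43% to 75.21% in the 37 pairs between subgroups. The ranges meet at 75.21%, since the SoxF gene Sox7 was as close to Sox9 as to Sox18. The longest identical run between transcripts of any pair was 48 bases, in Sox4 and Sox11, so few positions could give reads that the members share. No member overlapped another counted gene on its own strand.

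Values are CPM (counts scaled to library size with TMM factors), given as the mean ± SD of 3 libraries, and RPKM (the same per kilobase of exon) where genes are compared with each other. Libraries held 19898050 to 22827706 counts on genes, and the detection floor, set at 3 counts, was 0.13 to 0.16 CPM. TMM factors were 1.09 in WT-SD and 0.90 in KO-TGF, so scaling bears on small differences: with library size alone the median log2 difference of all genes tested moved from -0.01 to -0.16 (WT-TGF against WT-SD), from -0.02 to -0.23 (KO-TGF against KO-SD), from 0.02 to -0.06 (KO-SD against WT-SD) and from -0.004 to -0.13 (KO-TGF against WT-TGF). Replicates differed most in KO-SD, where KO-SD replicate 1 and replicate 2 had a chi-square of 5.07 per degree of freedom, against 1.35 to 2.1 in the other groups. Genes over 1 RPKM in at least one library were tested (11476 genes) and a gene was called at FDR <5% by the quasi-likelihood test in edgeR, from which adjusted p-values below come unless another fit is named. The biological coefficient of variation was only 0.0268, and most genes therefore passed in each comparison of groups. For the difference of TGF-β responses between the genotypes, 25.4% passed. All groups share an estimate of spread for each gene in this fit, so the wider spread of KO-SD is averaged with the others. Adjusted p-values of comparisons with KO-SD, and of the difference of responses, may therefore be too small. The counts have no row for lncMGC, and Mirg, a transcript of the same locus, was higher in KO-SD (3.67 CPM ± 0.548) than in WT-SD (2.34 CPM ± 0.308), so these counts give no direct check of the genotype, which the study read in the mouse line by Sanger sequencing, and KO below means libraries labelled KO.

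SOX expression in MMC was dominated by Sox4. By RPKM, Sox4 supplied 75.2% ± 0.0774 of the summed level of 19 SOX genes in WT-SD, 62.9% ± 0.288 in WT-TGF, 77.6% ± 0.0584 in KO-SD and 66.5% ± 0.58 in KO-TGF. Sox11 came next in 4 of 4 groups, with 9.27%, 16%, 12.9% and 21.2% in the same order. The share of Sox8 ran from 1.95% ± 0.117 in KO-SD to 14.6% ± 0.298 in WT-TGF. The summed level was 165 RPKM ± 2.32 in WT-SD, 201 RPKM ± 4.07 in WT-TGF, 173 RPKM ± 5.46 in KO-SD and 183 RPKM ± 1.1 in KO-TGF. Of the 10 members, 7 were over 1 RPKM in 12 of 12 libraries, and Sox6, Sox7 and Sox18 were under it in all 12. In WT-SD the levels ran from Sox4 (124 RPKM) through Sox11 (15.3 RPKM), Sox8 (10.3 RPKM), Sox12 (5.41 RPKM ± 0.290), Sox9 (4.18 RPKM ± 0.495) and Sox13 (3.18 RPKM ± 0.0889) to Sox5 (2.03 RPKM ± 0.131), and no neighbours in this order overlapped by 1 SD. This order rests on the exon length used for each gene. By CPM in WT-SD, Sox5 (29.1, exon length 14376 bases) exceeded Sox12 (24.1), Sox9 (17.3) and Sox13 (13.7). The order of the lower genes by RPKM changed with the group: in WT-TGF, Sox8 (29.4 RPKM ± 0.669) came close to Sox11 (32.2 RPKM ± 1.38). In KO-SD, Sox8 (3.38 RPKM ± 0.178) lay below Sox12 (4.91 RPKM ± 0.568) and within 1 SD of Sox9 (3.56 RPKM ± 0.0211), and in KO-TGF Sox5 (1.53 RPKM ± 0.191) and Sox13 (1.51 RPKM ± 0.0564) lay within 1 SD of each other.

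**Figure D1:**
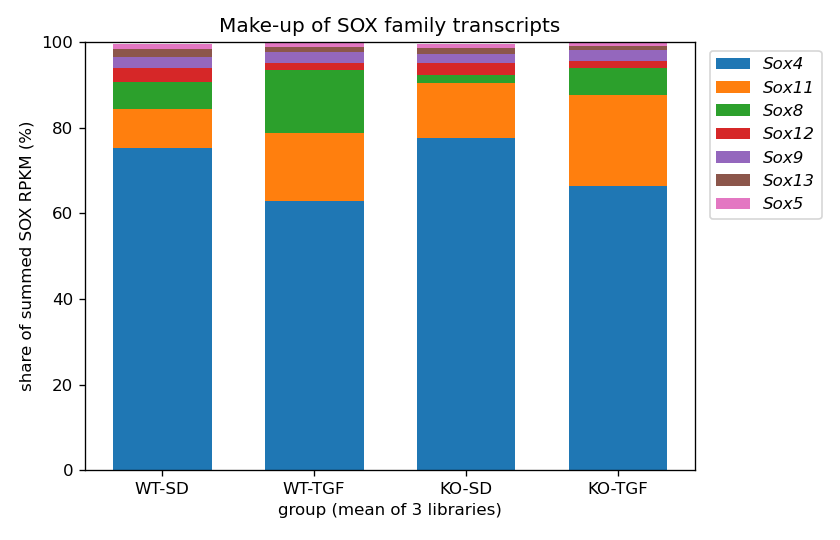
Share of the summed RPKM of 19 SOX genes (y axis, %) taken by each of the 7 members over 1 RPKM, as the mean of 3 libraries in each group (x axis). Sox4 takes 62.9% to 77.6%, and the Sox8 share is 14.6% in WT-TGF and 1.95% in KO-SD.

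Sox8 had the largest changes of the 7 members over 1 RPKM, up with TGF-β and down in KO. This SoxE gene (NCBI gene 20681, chr17:25565893-25570686, minus strand) had 32.85, 30.68 and 32.64 CPM in the WT-SD libraries, 93.74, 91.16 and 89.61 in WT-TGF, 10.52, 11.11 and 10.0 in KO-SD and 36.58, 36.47 and 37.04 in KO-TGF. No libraries of different groups overlapped, and TGF-β-treated KO libraries lay just above untreated WT libraries. That last order rests on the scaling, since with library size alone the mean was 33.09 CPM in KO-TGF and 34.98 CPM in WT-SD. TGF-β raised Sox8 by 1.51 on the log2 scale in WT (SE 0.0399, adjusted p = 1.27e-24), which is 2.86-fold, and by 1.80 in KO (SE 0.0573, adjusted p = 1.48e-22), which is 3.48-fold. KO-SD was 3.04-fold lower than WT-SD (log2 difference -1.60, SE 0.0573, adjusted p = 9.59e-21), and KO-TGF was 2.49-fold lower than WT-TGF (-1.32, SE 0.0402, adjusted p = 1.86e-22). On the log2 scale the TGF-β response itself was larger in KO than in WT, by 0.29 (95% interval 0.14 to 0.43, adjusted p = 0.00323). In CPM the rise was smaller in KO, with means of 10.54 and 36.7 CPM before and after, against 32.06 and 91.5 CPM in WT. Sox8 is among the genes in a heatmap that the study drew from these same libraries, as are Kif5c, Flt1 and Erg below, so its lower level in KO is not independent evidence.

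Sox9, the close relative of Sox8 and the gene for the master factor of cartilage (NCBI gene 20682, chr11:112782210-112787757, plus strand), moved in the same directions by smaller amounts. It had 19.41, 17.16 and 15.32 CPM in the WT-SD libraries, 24.38, 21.74 and 22.61 in WT-TGF, 14.79, 14.63 and 14.77 in KO-SD and 19.52, 21.09 and 19.2 in KO-TGF. Treated libraries lay above untreated ones in each genotype, and WT-SD was spread more widely than the gap to KO-SD. TGF-β raised Sox9 by 0.40 (SE 0.0695, adjusted p = 6.14e-06) in WT and by 0.44 (SE 0.0756, adjusted p = 6.51e-06) in KO. The difference of these responses was 0.03, with a 95% interval of -0.17 to 0.23, and it turned to -0.02 with library size alone. KO was lower than WT by 0.23 in SD (log2 difference -0.23, adjusted p = 0.0099) and by 0.20 with TGF-β (-0.20, adjusted p = 0.0163). Both calls were fragile: the first was lost without WT-SD replicate 1 (-0.14, adjusted p = 0.128), and the second with DESeq2 (adjusted p = 0.0615) and without WT-TGF replicate 1 (0.091) or without either KO-TGF replicate 1 (0.0822) or replicate 3 of the same group (0.104). The RPKM of Sox8 was 2.48 ± 0.306 times that of Sox9 in WT-SD, 5.3 ± 0.234 times in WT-TGF, 0.949 ± 0.0547 times in KO-SD and 2.45 ± 0.137 times in KO-TGF, so that the genes were near equal in KO-SD alone among the 4 groups.

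**Figure D2:**
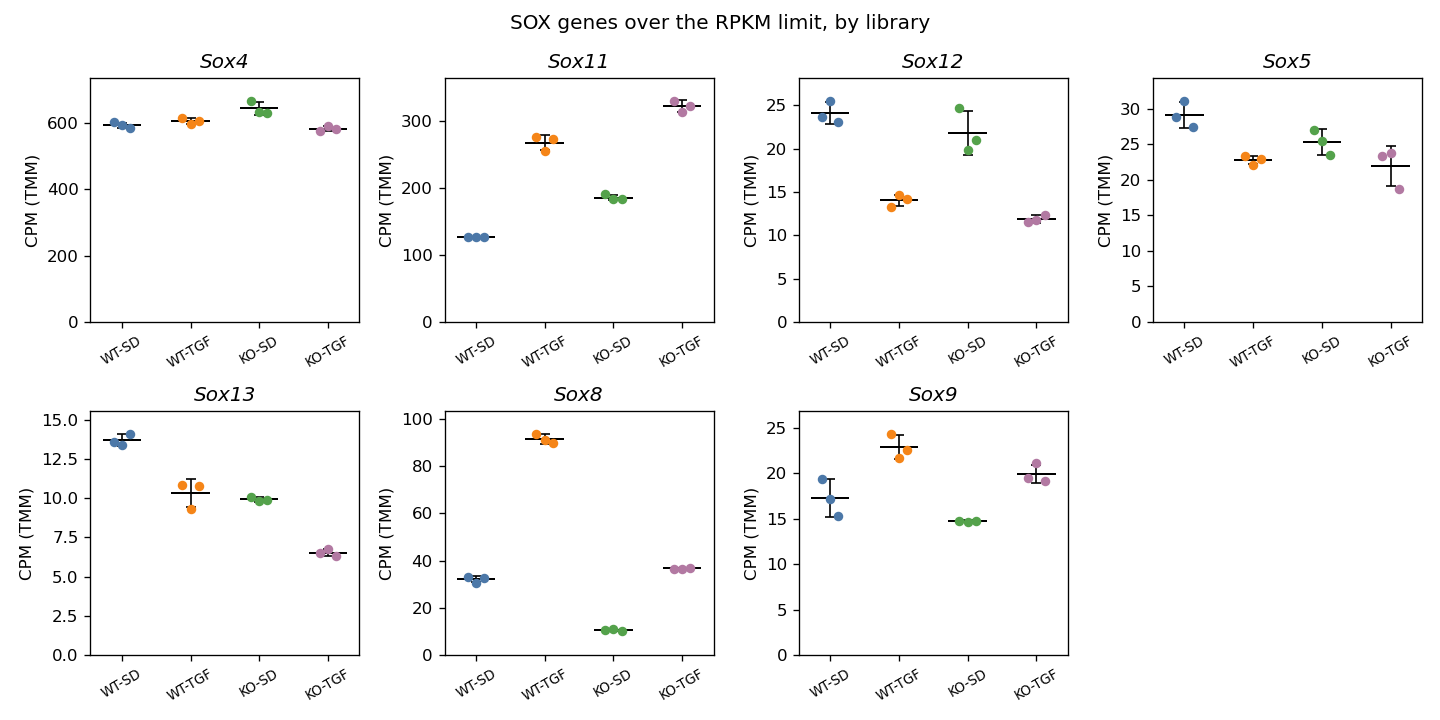
CPM (y axis, from 0) of the 7 members over 1 RPKM in each of the 12 libraries, by group (x axis), where points are libraries, long lines are means and error bars are SD (n = 3). Sox8 spans 10.0 to 93.74 CPM and its groups do not overlap, while Sox4 stays between 576.2 and 668.3 CPM.

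Among the SoxC genes, Sox11 rose with TGF-β, Sox12 fell and Sox4 hardly moved. Sox11 (NCBI gene 20666, chr12:27334268-27342718, minus strand), a factor of embryonic progenitors and neurons, had 126.8, 127.3 and 126.9 CPM in the WT-SD libraries, 275.2, 254.1 and 272.6 in WT-TGF, 190.3, 182.7 and 183.4 in KO-SD and 330.0, 313.5 and 322.0 in KO-TGF. The 4 groups did not overlap, and KO lay above WT both with and without TGF-β, in contrast to Sox8. TGF-β raised it by 1.07 in WT (SE 0.0306, adjusted p = 9.38e-24), which is 2.1-fold, and by 0.80 in KO (SE 0.0296, adjusted p = 7.81e-21), or 1.74-fold. KO exceeded WT by 0.55 in SD (SE 0.0312, adjusted p = 1.18e-15) and by 0.27 with TGF-β (SE 0.0289, adjusted p = 2.56e-09). On the log2 scale the response in KO was smaller by 0.28 (log2 difference -0.28, 95% interval -0.36 to -0.20, adjusted p = 6.38e-06). In CPM the rises were close, with means of 127 and 267.3 CPM before and after in WT, and 185.5 and 321.8 CPM in KO.

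Sox12 (NCBI gene 20667, chr2:152393611-152398046, minus strand), a more weakly activating SoxC factor, went the other way. It had 23.69, 25.55 and 23.07 CPM in the WT-SD libraries, 13.32, 14.61 and 14.17 in WT-TGF, 24.67, 19.8 and 21.05 in KO-SD and 11.55, 11.75 and 12.38 in KO-TGF. Treated and untreated libraries did not overlap in either genotype, whereas WT-SD and KO-SD did. Sox12 fell by 0.78 in WT (SE 0.0725, adjusted p = 5.5e-11) and fell by 0.88 in KO (SE 0.0787, adjusted p = 2.1e-11), and these responses differed by -0.10, with a 95% interval of -0.31 to 0.12. KO-SD against WT-SD gave -0.14 (adjusted p = 0.0724), which passed without KO-SD replicate 1 (-0.24, adjusted p = 0.00208) and, by a smaller margin, without any one KO-TGF library. With TGF-β, KO was lower (-0.24, adjusted p = 0.0184), a call lost without WT-TGF replicate 2 and without replicate 1 or 2 of KO-TGF (adjusted p = 0.0744, 0.0863 and 0.072). The RPKM of Sox11 was 2.83 ± 0.143 times that of Sox12 in WT-SD, 10.2 ± 0.877 times in WT-TGF, 4.58 ± 0.413 times in KO-SD and 14.5 ± 0.713 times in KO-TGF.

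Sox4 (NCBI gene 20677, chr13:28948919-28953699, minus strand), a factor linked to epithelial-mesenchymal transition downstream of TGF-β in other cells, was at a near constant level. It had 602.3, 593.1 and 586.7 CPM in the WT-SD libraries, 615.1, 596.1 and 607.0 in WT-TGF, 668.3, 634.7 and 630.4 in KO-SD and 576.2, 592.7 and 581.4 in KO-TGF. The KO-SD libraries stood above all the others, and WT-SD and WT-TGF overlapped. In WT the TGF-β difference was 0.03 (SE 0.0244, adjusted p = 0.291), and it turned to -0.13 (adjusted p = 1.83e-05) with library size alone, a shift of the size seen in all genes, and to 0.06 (adjusted p = 0.0202) without the filter on RPKM. In KO it fell by 0.14 (SE 0.0245, adjusted p = 5.29e-06), and the response in KO was lower than in WT by 0.17 (log2 difference -0.17, adjusted p = 2.77e-04). KO-SD was higher than WT-SD by 0.12 (adjusted p = 1.36e-04), which was lost with library size alone (0.04, adjusted p = 0.11), and KO-TGF against WT-TGF gave -0.05 (adjusted p = 0.0594). That last difference passed with library size alone (-0.17, adjusted p = 1.68e-07), in a fit of only the groups compared (-0.06, adjusted p = 0.00984), with a replicate block (adjusted p = 0.0376) and without WT-TGF replicate 2 or KO-SD replicate 1 (adjusted p = 0.043 and 0.0187), and the other libraries left out in turn gave no call. With Sox4 near constant, the ratio of Sox4 to Sox11 in RPKM was 8.11 ± 0.114 in WT-SD, 3.93 ± 0.115 in WT-TGF, 6.02 ± 0.0647 in KO-SD and 3.14 ± 0.126 in KO-TGF.

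The SoxD genes fell or were near the floor. Sox13 (NCBI gene 20668, chr1:133382300-133424459, minus strand), known from T cells and as a partner of TCF factors, had 13.62, 13.38 and 14.13 CPM in the WT-SD libraries, 10.87, 9.312 and 10.81 in WT-TGF, 10.11, 9.851 and 9.862 in KO-SD and 6.524, 6.782 and 6.296 in KO-TGF. It was lower with TGF-β in each genotype and lower in KO in each condition, and untreated KO libraries fell in the range of treated WT libraries. TGF-β lowered it by 0.41 in WT (log2 difference -0.41, SE 0.0765, adjusted p = 2e-05) and by 0.61 in KO (-0.61, SE 0.0925, adjusted p = 8.64e-07). KO was below WT in SD (-0.46, SE 0.077, adjusted p = 6.22e-06) and with TGF-β (-0.66, SE 0.0919, adjusted p = 3.68e-07), and the responses differed by -0.19 (95% interval -0.43 to 0.04, adjusted p = 0.265).

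Sox5 (NCBI gene 20678, chr6:143828425-144782287, minus strand), which with Sox6 assists Sox9 in cartilage, had 28.8, 31.15 and 27.45 CPM in the WT-SD libraries, 23.34, 22.14 and 22.91 in WT-TGF, 27.06, 25.45 and 23.49 in KO-SD and 23.37, 23.71 and 18.78 in KO-TGF. The WT groups were apart, and KO-TGF replicate 3 was the lowest of the 12 libraries. TGF-β lowered Sox5 in WT (-0.36, SE 0.068, adjusted p = 2.91e-05). In KO the difference of -0.21 passed (adjusted p = 0.0112), but not without KO-SD replicate 1 (-0.16, adjusted p = 0.0552) or KO-TGF replicate 3 (-0.09, adjusted p = 0.273). KO-SD was below WT-SD (-0.20, adjusted p = 0.0106), and this was lost without WT-SD replicate 2 (adjusted p = 0.0871) or KO-SD replicate 3 (adjusted p = 0.0779). KO-TGF against WT-TGF gave -0.05 (adjusted p = 0.551), which was 0.06 without KO-TGF replicate 3. The responses of the genotypes differed by 0.15 (adjusted p = 0.307), which passed without KO-TGF replicate 3 (0.29, adjusted p = 0.0227).

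Sox6 (NCBI gene 20679, chr7:115470872-116040776, minus strand), the partner of Sox5, was close to the floor and was taken from the fit that held all 18565 detected genes. It had 13, 20 and 11 counts in WT-SD, 18, 17 and 14 in WT-TGF, 5, 1 and 2 in KO-SD and 0, 1 and 2 in KO-TGF. Every WT library exceeded every KO library, and the treatment did not separate the libraries of a genotype. The edgeR fit gave KO-SD as 4.98-fold lower than WT-SD (adjusted p = 2.14e-05) and KO-TGF as 12.99-fold lower than WT-TGF (adjusted p = 1.31e-08). Adjusted p-values of this fit are not comparable with those of the fit of genes over 1 RPKM. For Sox8 with TGF-β in WT, the quasi-likelihood test gave an adjusted p of 1.9e-254 in this fit and 1.27e-24 in the other. Per total count, the ratios were 5.28-fold in SD (8 counts against 44, 95% interval 2.46 to 13) and 14.4-fold with TGF-β (3 counts against 49, interval 4.66 to 72.5). These intervals cover counting error only. The WT response to TGF-β was 0.25 (adjusted p = 0.554), and at 3 and 8 counts no response in KO was detectable.

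The SoxF genes were at the floor in all groups. Sox7 (NCBI gene 20680, chr14:63943706-63950732, plus strand) had 0 to 5 counts in a library, with sums of 7, 6, 5 and 6 counts over the WT-SD and WT-TGF and the KO-SD and KO-TGF libraries. Sox18 (NCBI gene 20672, chr2:181669837-181671640, minus strand) had 0 to 3 counts, with sums of 5, 1, 2 and 2. Neither passed in any comparison, and differences were not detectable at this depth. Of the 9 other SOX genes, Sox3, Sox14 and Sox17 had no count in 12 libraries, which allows up to 0.16 CPM in a library, and Sox1, Sox10, Sox15 and Sox30 had at most 4 counts in a library. Sox2 had 2 to 11 counts and passed in no comparison. Sox21 had 7, 4 and 3 counts in WT-SD, 7, 5 and 2 in WT-TGF, 13, 9 and 20 in KO-SD and 5, 11 and 5 in KO-TGF. Per total count, KO-SD exceeded WT-SD 3.12-fold (interval 1.67 to 6.19), while KO-TGF against WT-TGF gave 1.7-fold (0.822 to 3.61). In the edgeR fit of all detected genes Sox21 passed in SD (adjusted p = 9.68e-04, beside 23.4% of detected genes) and not with TGF-β (adjusted p = 0.284).

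**Figure D3:**
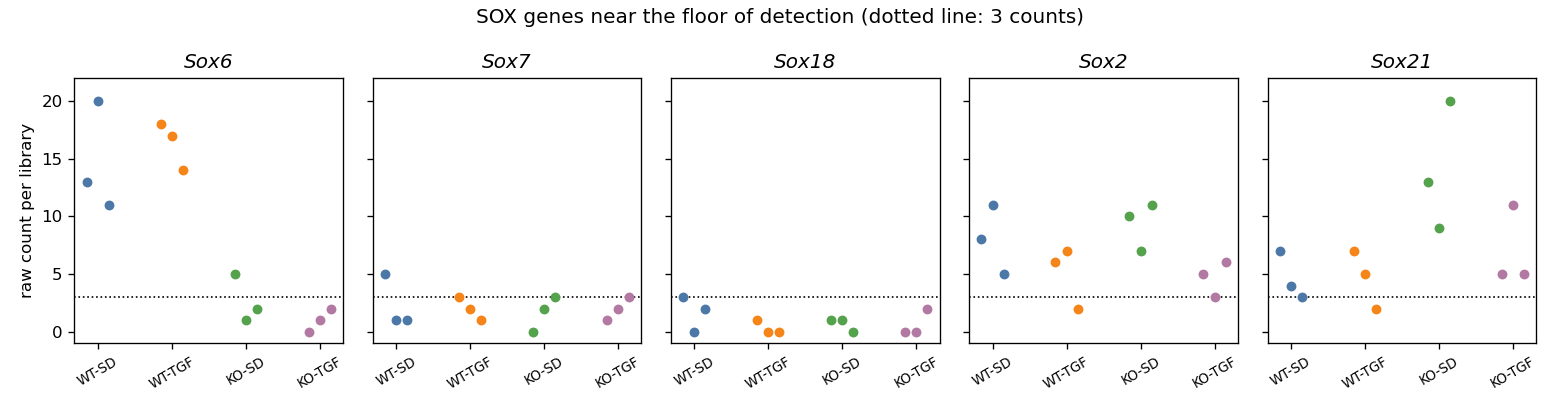
Raw counts (y axis) of Sox6, Sox7, Sox18, Sox2 and Sox21 in each library, by group (x axis), with the floor of 3 counts dotted. Sox6 has 11 to 20 counts in WT libraries and 0 to 5 in KO libraries, while Sox7 and Sox18 have at most 5.

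Counted over the 10 members, TGF-β in WT raised 3 (Sox8, Sox9, Sox11) and lowered 3 (Sox5, Sox12, Sox13), where 35.9% of all genes tested rose and 36.5% fell, or 72.5% in all. In KO the same 3 rose and 4 fell, Sox4 in addition, beside 35% and 39% of all genes (74% in all). KO-SD had 2 members above WT-SD (Sox4, Sox11) and 5 below (Sox5, Sox6, Sox8, Sox9, Sox13), beside 30.6% and 25.3% (55.9% in all), and 17.9% were lower in the fit of detected genes that held Sox6. KO-TGF had 1 above WT-TGF (Sox11) and 5 below (Sox6, Sox8, Sox9, Sox12, Sox13), beside 27.2% and 27.9% (55.1% in all), and 20.3% in the fit that held Sox6. The TGF-β responses of the genotypes on the log2 scale differed for 3 members, larger in KO for Sox8 and lower for Sox4 and Sox11, beside 8.77% of all genes higher and 16.6% lower (25.4% in all). Libraries of the groups compared did not overlap for 6 of the 7 members over 1 RPKM in each of the 4 comparisons of groups, as for 75.2%, 74.3%, 59.2% and 61.6% of all genes tested in the order above. The shares of all genes tested are of genes over 1 RPKM, so Sox6, Sox7 and Sox18 lie outside them. Of the 7 members over 1 RPKM, TGF-β raised 3 and lowered 3 in WT, and raised 3 and lowered 4 in KO. In KO-SD 2 of these were higher and 4 lower than in WT-SD, and in KO-TGF 1 was higher and 4 lower than in WT-TGF. Whether these counts depart from the shares was not tested.

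The fold matters more than the count here. With a fold above 2 as well, TGF-β raised Sox8 and Sox11 in WT (2 members, beside 4.19% of all genes) and Sox8 in KO (1 member, 4.42%), and it lowered no member (5.67% and 9.03%). KO was lower than WT by more than 2-fold for Sox6 and Sox8, 2 members in SD and the same 2 with TGF-β. Of the genes over 1 RPKM, 3.12% in SD and 4.56% with TGF-β were lower to this extent. These shares stand beside Sox8 alone, since Sox6 was under 1 RPKM and no such share was taken for its fit. No member was higher in KO by more than 2-fold (3.24% and 1.4% of all genes) or had a response that differed by more than 2-fold and passed (0.34% higher and 2.4% lower). When a fold of 1.2 was the null in place of no change, the 4 differences between groups still passed for Sox8 and for Sox13, whereas the 3 differences of response between genotypes did not pass. Under the same null the KO differences of Sox4, Sox5, Sox9 and Sox12, that of Sox11 with TGF-β, and the TGF-β differences of Sox4 and Sox5 did not pass either. The 4 comparisons share libraries in pairs, so their values for a gene are not independent of each other. The median log2 difference of the 7 members over 1 RPKM was 0.03 for TGF-β in WT, -0.14 in KO, -0.20 for KO in SD and -0.20 with TGF-β, against -0.01, -0.02, 0.02 and -0.004 for all genes tested.

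**Figure D4:**
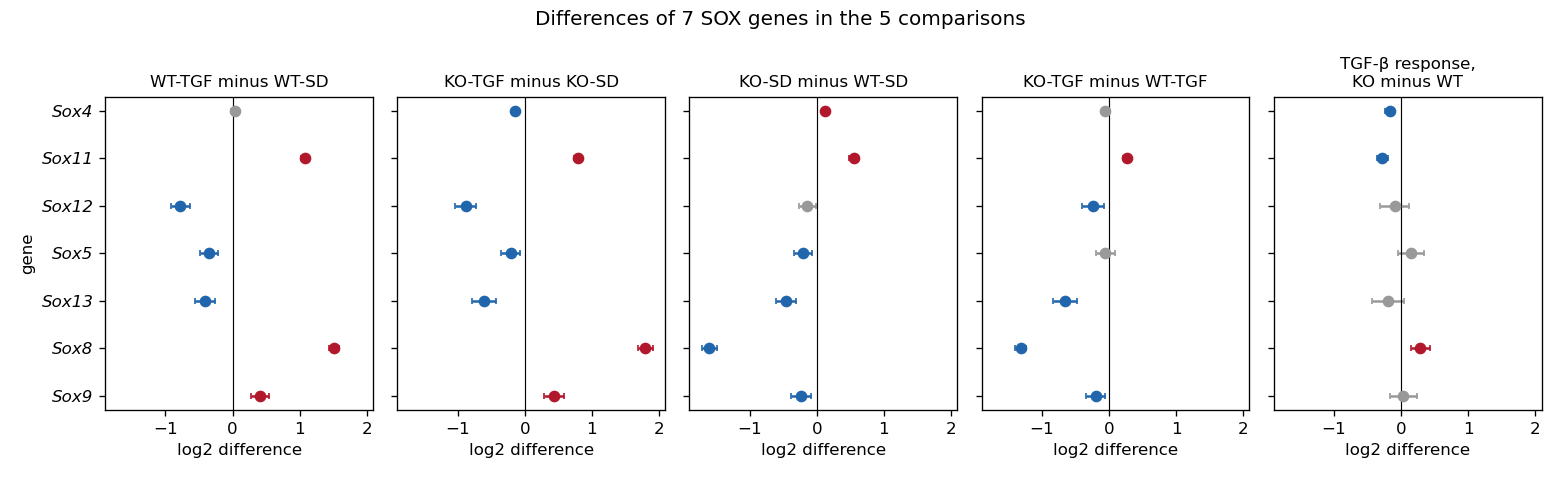
Log2 differences (x axis, with 95% intervals from the SE of the fit) of 7 SOX genes (y axis) in the 4 comparisons of groups and in the difference of TGF-β responses, where red passed FDR <5% as higher, blue as lower and gray did not pass. Sox8 is at 1.51 and 1.80 for TGF-β and at -1.60 and -1.32 for KO against WT.

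Promoters (250 bases before to 50 after the start, RefSeq, GRCm38.p6) are shown for Sox8 and Sox11, the members that TGF-β raised by more than 2-fold. They were searched on both strands for CAGAC (SMAD), GGCGCC (GC-rich SMAD), TGACTCA (AP-1), AACAAT (SOX), CCAAT (NF-Y) and TATAAA (a basal promoter element), none of which overlap in the hits marked in capitals.
Sox8, chr17:25570637-25570936, minus strand: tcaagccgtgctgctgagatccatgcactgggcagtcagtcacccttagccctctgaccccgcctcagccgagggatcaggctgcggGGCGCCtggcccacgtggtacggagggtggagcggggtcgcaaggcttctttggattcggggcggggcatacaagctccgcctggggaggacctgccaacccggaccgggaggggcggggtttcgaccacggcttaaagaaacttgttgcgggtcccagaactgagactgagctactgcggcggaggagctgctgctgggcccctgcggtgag
Sox11, chr12:27342669-27342968, minus strand: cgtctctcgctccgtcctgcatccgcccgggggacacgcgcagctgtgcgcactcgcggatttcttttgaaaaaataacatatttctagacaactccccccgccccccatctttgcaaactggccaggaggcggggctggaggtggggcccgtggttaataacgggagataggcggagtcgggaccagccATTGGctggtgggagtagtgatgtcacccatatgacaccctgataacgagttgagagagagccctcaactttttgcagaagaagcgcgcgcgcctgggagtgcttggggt

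The Sox8 window held GGCGCC once, 163 bases before the start, and the Sox11 window held CCAAT once, on the opposite strand 60 bases before the start. Neither held CAGAC, which 49.6% of 32851 promoters of the same length held, beside 11.9% for GGCGCC, 37.4% for CCAAT, 5.2% for TGACTCA, 10.7% for AACAAT and 13.6% for TATAAA. Of the members that TGF-β lowered in WT, Sox12 held CAGAC and CCAAT once each, and Sox13 held none of the 6 motifs. The only window of Sox5 held CAGAC once, but it lies inside the gene (chr6:143947057-143947356). The upstream end of Sox5, at 144782287, was not searched. Windows of Sox6, a gene near the floor, are not reported here. The near constant Sox4 held CAGAC 2 times and CCAAT 4 times. The table of promoters has no entry for Sox7, Sox9 and Sox18.

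The genes most like each member over the 12 libraries were named by the correlation of log2 CPM, for the 4 members whose group means spanned more than 2-fold. With 4 groups of close replicates such values are high for any gene that follows the same order of groups. For Sox8 they were Pdzrn3 (r = 0.999), Mast4 (r = 0.997) and Kif5c (r = 0.997). Kif5c, a kinesin heavy chain, had mean levels of 26.6 CPM in WT-SD, 67.3 in WT-TGF, 10.6 in KO-SD and 28.3 in KO-TGF, ranked as for Sox8. For Sox11 they were Ckap4, Ccn1 and Zfp9 (r = 0.997 each), of which Ccn1, a matricellular protein gene of the CCN family, had 362, 834, 549 and 966 CPM by the same order of groups. For Sox12 they were Tslp (r = 0.992), Cited2 (r = 0.989) and Adam17 (r = 0.989), and for Sox13 Snrnp200 (r = 0.99), Fah (r = 0.988) and Kank1 (r = 0.987). Cited2, a transcriptional co-regulator that binds CBP and p300, had 294, 167, 272 and 140 CPM, again in that order.

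Genes linked to SOX factors were listed by role, and the 4 most abundant of each list are named. Most genes passed in either direction in each comparison of groups, so each count of a list stands beside the share of all genes tested. Of 18 genes listed as SOX9 targets, mainly of the cartilage matrix, 6 were over 1 RPKM. With TGF-β, 4 of these rose and 1 fell in WT, and 3 rose and 2 fell in KO. KO against WT gave 1 higher and 3 lower in SD, and 3 higher and 2 lower with TGF-β. Of all genes tested, 35.9% rose and 36.5% fell in WT, 35% rose and 39% fell in KO, while KO-SD exceeded WT-SD for 30.6% and lay below it for 25.3%, and KO-TGF exceeded WT-TGF for 27.2% and lay below it for 27.9%. Col9a1, Hapln1 and Snorc were at 0 in 12 libraries, and Acan was at 0 in WT-SD and KO-SD. Col2a1, the cartilage collagen, had 41.5 CPM ± 1.92 in WT-SD, 48.5 CPM ± 3.2 in WT-TGF, 30.8 CPM ± 4.3 in KO-SD and 25.6 CPM ± 0.57 in KO-TGF, and was lower in KO by 0.43 in SD (log2 difference -0.43, adjusted p = 9.89e-07) and by 0.92 with TGF-β (-0.92, adjusted p = 4.06e-13). Col11a1, a fibrillar collagen of cartilage, went the other way, with 553 CPM in WT-SD, 565 CPM in WT-TGF, 1824 CPM in KO-SD and 1099 CPM in KO-TGF (1.72 higher in KO-SD on the log2 scale, adjusted p = 2.82e-32). Chst11, a chondroitin sulfotransferase, rose with TGF-β by 1.33 in WT and 1.69 in KO (adjusted p = 8.52e-26 and 2.76e-28), and Col4a2, a basement membrane collagen, by 0.20 and 0.48 (adjusted p = 5.62e-10 and 5.3e-19). Of 12 SOX9 cofactors, 11 were tested: 1 rose and 7 fell with TGF-β in WT, 1 rose and 7 fell in KO, none was higher and 5 were lower in KO-SD, and none was higher and 9 were lower in KO-TGF, where 36.5%, 39%, 25.3% and 27.9% of all genes tested were lower. Arid5b fell by 1.28 with TGF-β in WT and by 1.29 in KO (log2 differences -1.28 and -1.29, adjusted p = 6.32e-27 and 1.11e-26). Smad3, a signal transducer of TGF-β, fell by 0.50 and by 0.49 (-0.50 and -0.49, adjusted p = 1.61e-15 and 6.25e-15). Ctnnb1, the gene for β-catenin, fell by 0.34 and by 0.50 (-0.34 and -0.50, adjusted p = 1.15e-14 and 5.93e-19), and Ep300 fell by 0.07 and by 0.10 (-0.07 and -0.10, adjusted p = 0.0212 and 0.00153).

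Of 4 genes linked to SoxC factors, 3 were tested and all 3 were higher in KO in both conditions, beside 30.6% of all genes tested in SD and 27.2% with TGF-β. TGF-β raised 2 of them in WT (35.9% of all genes), and 1 rose and 2 fell in KO (35% and 39%). Tubb3, a neuronal tubulin, had 11.5 CPM ± 0.808 in WT-SD, 72.3 CPM ± 0.74 in WT-TGF, 17.7 CPM ± 1.67 in KO-SD and 94.9 CPM ± 4.08 in KO-TGF, which is the order of groups of Sox11. It rose with TGF-β by 2.65 in WT and 2.42 in KO (adjusted p = 6.37e-27 and 3.97e-27). Tead2, a partner of YAP, was higher in KO by 0.40 in SD and by 0.17 with TGF-β (adjusted p = 1.01e-10 and 2.74e-04), and Ezh2, a Polycomb methyltransferase, by 0.94 and 0.26 (adjusted p = 1.11e-13 and 0.00232). Dcx, a neuronal gene, had no count. Of 8 corepressors that SoxD factors can use, all 8 were tested, with 3 rising and 3 falling with TGF-β in WT, 4 and 3 in KO, 4 higher and 1 lower in KO-SD, and 3 higher and none lower in KO-TGF, against the same shares of all genes as for the cartilage list. With TGF-β in WT and in KO, Ncor1 fell by 0.14 and by 0.10 (-0.14 and -0.10, adjusted p = 3.95e-06 and 5.53e-04), Tle3 fell by 0.44 and by 0.14 (-0.44 and -0.14, adjusted p = 6.06e-13 and 4.53e-04), and Ctbp1 rose by 0.14 and 0.06 (adjusted p = 1.14e-04 and 0.0411). The medians of the lists for KO-TGF against WT-TGF were 0.10 for the cartilage matrix, -0.12 for the cofactors, 0.26 for the SoxC-linked genes and 0.06 for the corepressors, against -0.004 for all genes tested.

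Of 20 endothelial genes, among them targets of SoxF factors, 4 were tested, Vcam1, Flt1, Ehd3 and Erg, while Prox1, the fourth most abundant per count, was under 1 RPKM. With TGF-β, 2 rose and 2 fell in WT (35.9% and 36.5% of all genes tested), and 1 rose and 3 fell in KO (35% and 39%). Against WT, all 4 were lower with TGF-β and 3 were lower in SD, beside 27.9% and 25.3% of all genes. Cldn5 and Robo4 were at 0 in 12 libraries, and the summed level of the list was 151 to 157 CPM in WT-SD, 87.1 to 94.6 CPM in WT-TGF, 105 to 116 CPM in KO-SD and 40.7 to 41.8 CPM in KO-TGF. Flt1, a VEGF receptor, had 19 CPM ± 0.637, 41.5 CPM ± 2.07, 10.7 CPM ± 0.175 and 13.4 CPM ± 0.6 in the same order. Vcam1, an adhesion molecule that mesangial cells also make, had 95.9, 18.2, 76.2 and 12 CPM. Together with Ehd3 (32.7, 20.8, 17.1 and 9.69 CPM), these genes weigh most in the summed level. Cdh5 had at most 2 counts in a library, and Tie1 and Emcn at most 1.

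Markers of cell types moved with the genotype beside Sox6 and Sox8. The background for higher and lower levels in KO was 30.6% and 25.3% of all genes tested in SD, then 27.2% and 27.9% with TGF-β. Of 12 mesangial and smooth muscle markers 7 were tested, with 6 higher and 1 lower in KO-SD and 5 higher and 2 lower in KO-TGF. Abundant members such as Vim (1930 CPM in WT-SD), Acta2 (1570 CPM) and Tagln (716 CPM) weigh most in their summed level, which was 4440 to 4620 CPM in WT-SD, 8640 to 8900 in WT-TGF, 7330 to 7360 in KO-SD and 14300 to 14500 in KO-TGF, while Ren1 was at 0 in 12 libraries. Members of lower level went both ways. Des, the gene for the muscle intermediate filament desmin, was 14.4-fold lower in KO-SD and 22.2-fold lower in KO-TGF (adjusted p = 2.74e-17 and 6.77e-16). Cnn1 was higher in KO, with 27.5 CPM in WT-SD against 57 in KO-SD, and 78.9 in WT-TGF against 178.5 in KO-TGF. Gata3 was higher as well, with 4.04 against 7.22 CPM and 4.05 against 9.11 CPM. Pdgfrb, the PDGF receptor of mesangial cells, was higher in KO-SD by 0.09 and lower in KO-TGF by 0.10 (log2 differences 0.09 and -0.10, adjusted p = 0.00496 and 0.00111). In the fit of all detected genes, Pdgfra was 1.75-fold lower in KO-SD and 2.94-fold lower in KO-TGF (adjusted p = 8.63e-06 and 0.00142), and Itga8, an integrin of mesangial cells, was 2.49-fold lower in KO-TGF (adjusted p = 6.09e-06). In SD, Itga8 had 2.9 CPM ± 0.25 in WT and 3.05 CPM ± 0.349 in KO. Of 9 podocyte markers 5 were tested, and all 5 were lower in KO in both conditions: the sum was 560 to 571 CPM in WT-SD, 549 to 564 in WT-TGF, 298 to 302 in KO-SD and 276 to 293 in KO-TGF, with Nphs1, the nephrin gene, at 0 or 1 count in each library. Of 11 macrophage markers 3 were tested, all lower in KO, with sums of 27.7 to 29.4 CPM, 16.9 to 20.9, 2.06 to 2.22 and 0.854 to 1.44, and Adgre1, C1qa, C1qb, C1qc and Tyrobp at 0 in both KO groups. Of 11 tubular markers 4 were tested, 3 of them lower and 1 higher in KO in both conditions, with sums of 306 to 319 CPM, 133 to 147, 167 to 183 and 69.7 to 73.4, and Slc34a1, Umod and Aqp2 at 0 throughout. Of 7 glial and neural crest markers, a lineage that uses SoxE factors, none was over 1 RPKM, Foxd3 and Cdh19 were at 0, and the sums were 4.24 to 5.02 CPM, 3.61 to 4.44, 2.39 to 2.61 and 1.84 to 2.09. The part of these cell types in the lower Sox6, Sox8, Sox9 and Sox13 of KO was not tested. In bulk RNA, fewer cells that express a gene and less of its RNA per cell cannot be told apart.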

How the data were processed

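RNA was sequenced from 12 libraries of MMC, 3 in each of 4 groups that follow the genotype, treatment and replicate in the sample labels. The values deposited by the authors are raw counts per gene, which they made by aligning reads to mm10 with TopHat and counting them on RefSeq genes with HTSeq, per the labels and the methods of the study. They were not normalized or filtered. Rows that name no gene, among them reads outside exons (10.3% to 15.4%), were left out.

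Exon lengths (GENCODE vM21) were found for 24415 genes by symbol and 287 by an older symbol, and 528 had none. The limit was RPKM >1 in one library or more, and the 11476 genes over it were scaled by TMM and tested with the quasi-likelihood test of edgeR 4.0.16 (R 4.3.3) with Benjamini-Hochberg adjustment, in one fit of 12 libraries with a mean per group and 5 contrasts. SE and 95% intervals come from this fit. Members under the limit came from a fit that held all 18565 detected genes. Ratios of sparse counts have exact 95% intervals. Correlations used log2 CPM with a prior count of 2. The test was tested on simulated data. Depth, 19898050 to 22827706 counts, limits only genes near the floor of 3 counts. Alternatives were library size alone, DESeq2 1.42.0, the likelihood ratio test, a null of 1.2-fold, CPM >1 in at least 3 libraries, no filter, only the groups compared, a replicate block and each library left out.

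The text names 10 members and 9 other SOX genes, the 4 most abundant of each list with those that have no count or are at 0, the 3 genes most like each member that spans more than 2-fold, and Mirg. Kif5c, Ccn1 and Cited2 were given levels, and Erg, Des, Pdgfrb, Pdgfra, Itga8, Cnn1 and Gata3 were named, after their values were seen. The members and lists were chosen with earlier results of these data known. The HMG box was found by translating transcripts, since no protein table was used here. Some members of the gene lists are counted with their list, and their own values are not reported here.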

Additional observations from a re-analysis of the deposited data

Results flagged for a closer look

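For 3 SOX genes the response to TGF-β differed between the genotypes by the test of the difference itself (quasi-likelihood test in edgeR, 3 libraries in each of 4 groups). The response of Sox8 in KO minus that in WT was 0.29 on the log2 scale, from a level that was lower in KO both before and after TGF-β. That of Sox11 was -0.28, from a higher level in KO, and that of Sox4 was -0.17, with a fall in KO and no call in WT. None of the 3 passed when a fold of 1.2 was the null (glmTreat in edgeR), where 0 had an unadjusted p under 0.05, while DESeq2 and the likelihood ratio test called all 3.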

How the results depend on the processing

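The small spread between libraries lets differences of a few percent pass, so the null of 1.2-fold changed most. Under it all genes called were 4444, 4859, 2245, 2247 and 870 (TGF-β in WT and in KO, KO in SD and with TGF-β, difference of responses). SOX members called lower in KO with TGF-β against SD were 2. SOX members called higher and lower were 1 and 3 in KO-SD, 0 and 3 in KO-TGF, and 0 and 0 for the difference of responses. These counts of 0, from glmTreat in edgeR, were also 0 at an unadjusted p under 0.05, while the quasi-likelihood test, the likelihood ratio test and DESeq2 each gave 1 higher in KO-TGF, and 1 higher and 2 lower for the responses. With library size alone, SOX members higher in KO-SD were 1, and the direction turned for Sox4 with TGF-β in WT (-0.13), for Sox18 with TGF-β in KO (-0.013) and for the difference of responses of Sox9 (-0.015).

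With each library left out in turn, SOX members called lower in KO-TGF were 3 to 6 (3 without KO-TGF replicate 1), and SOX members with a higher response in KO were 1 to 2 (2 without KO-TGF replicate 3). Log2 differences whose direction turned, none of them called, ranged for Sox5 from -0.096 to 0.063 (KO-TGF against WT-TGF) and for the difference of responses of Sox9 from -0.059 to 0.11. For Sox7 they ranged from -0.51 to 1.02 (TGF-β in WT), -0.12 to 1.09 (TGF-β in KO), -1.03 to 0.76 (KO in SD), -0.20 to 0.57 (KO with TGF-β) and -0.58 to 1.21 (responses). For Sox18 they ranged from -2.65 to 0.69 (TGF-β in KO), -1.87 to 2.81 (KO with TGF-β) and -0.78 to 3.90 (responses). The cause of these turns was not tested, and Sox7 and Sox18 have at most 5 counts in a library.

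Sox8, Sox11 and Sox13 kept the direction and side of the threshold of their 4 differences between groups under all alternatives other than the 1.2-fold null, where Sox11 in KO-TGF against WT-TGF (0.27) was lost. Replicates of the same number did not pair: over 18 pairs of libraries the correlation of deviations from group means was -0.03 to 0.09, and 0 pairs were over 0.1. A fit with the replicate number as a block gave Sox4 in KO-TGF against WT-TGF as -0.05 (adjusted p = 0.0376) and changed no other SOX call. A fit of only the groups compared could not be made for the difference of responses.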
